A study of Drosophila melanogaster with 15 samples.

Results

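Signaling downstream of receptors was followed through the antennal transcriptome of male *Drosophila melanogaster*, over the 10 genes whose FlyBase symbol is *Galphas*, *Galphao*, *Galphaq*, *rut*, *norpA*, *Arr1*, *Arr2*, *krz*, *Gprk2* or *CaMKII*. They encode G protein subunits, the enzymes these act on, and the kinase and arrestins that end receptor signaling. All 10 were found among the 17490 genes of the deposited tables, and all 10 were among the 10358 genes with enough counts to be tested. The study asked how social isolation and the loss of pheromone receptors or of the male form of the transcription factor Fruitless change gene expression in the antenna. Poly(A) RNA from the third antennal segment of 7-day-old males, 180 antennae per sample, was sequenced in 5 groups. *Or47b1* males were homozygous for a mutant allele of the pheromone receptor gene *Or47b* and also carried *Or47b-GAL4* and *UAS-mCD8GFP* on both copies of the chromosome. *Or67dGAL4* males were homozygous for a GAL4 insertion that removes the pheromone receptor Or67d, together with *UAS-mCD8GFP* on both copies. *fruLexA/fru4-40* males carried a pair of *fruitless* alleles that together remove the male form of the protein, in flies with a functional *white* gene. *w1118* SH males were white-eyed wild types isolated as pupae and kept alone (single-housed), and *w1118* GH males were the same strain kept in groups (group-housed), as were all the mutants. There were 3 samples per group, except for *fruLexA/fru4-40*, where the study used 2 of the 3 samples deposited. Genetic background and transgenes differ between the mutants and *w1118* and cannot be told apart from the mutations themselves.

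A G-protein-coupled receptor works through a heterotrimer of alpha, beta and gamma subunits. Gαs turns on adenylyl cyclases, which make the second messenger cAMP, Gαq turns on phospholipase C, and Gαo acts largely through the beta and gamma subunits and other effectors. A G-protein-coupled receptor kinase then phosphorylates the active receptor, and an arrestin binds it and uncouples it from the G protein. The odorant receptors of flies are themselves ligand-gated ion channels, formed with the co-receptor Orco, so that in fly olfactory receptor neurons G protein and cAMP signaling is thought to tune the response more than to carry it. The best-studied fly pathway of this kind is in the eye, where rhodopsin, Gαq, the phospholipase C encoded by *norpA* and the arrestins *Arr1* and *Arr2* carry and end the response to light.

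The 14 libraries of the study held 8570425 to 14908299 counts, and 5907543 were in the remaining one, *fruLexA/fru4-40* replicate 1, which is deposited with a QC warning. That library is in no comparison and its values are given apart. Levels are in RPKM, counts divided by the exon length of the gene and by the TMM-scaled total of its library. For *fruLexA/fru4-40* replicate 1 that total was scaled in a fit to all 15 libraries, and for the others in the fit to 14. The targeted receptors were low in the groups labelled with their mutation. *Or47b* had 0.555 to 0.859 RPKM in *Or47b1*, against 121 to 133 RPKM in *w1118* GH, and *Or67d* had 0.0802 to 0.927 RPKM in *Or67dGAL4*, against 71.6 to 76.6 RPKM in *w1118* GH. Both receptors were also below all *w1118* GH libraries in *fruLexA/fru4-40*, with 83.9 and 75.5 RPKM of *Or47b* and 52.3 and 37.3 of *Or67d*. Markers of olfactory neurons were abundant in every library. The summed level of the co-receptor genes *Orco*, *Ir8a*, *Ir25a* and *Ir76b* was 1667 to 1867 RPKM in *Or47b1*, 1317 to 1547 in *Or67dGAL4*, 1217 and 1380 in *fruLexA/fru4-40*, 1908 to 2054 in *w1118* SH and 1724 to 1800 in *w1118* GH. Some libraries also held eye transcripts. The rhodopsin gene *ninaE* had 10.9 to 37.2 RPKM in 4 of the 14 libraries, replicate 3 of *Or47b1*, *Or67dGAL4*, *fruLexA/fru4-40* and *w1118* SH, and 0.0558 to 2.26 RPKM in the other 10, which include all 3 of *w1118* GH. Muscle transcripts were uneven too. The sum of *Mhc*, *Act88F*, *wupA*, *up* and *Mlc2* was 24.4 to 42.0 RPKM in *Or47b1* and 29.5 to 77.1 in *Or67dGAL4*. It was 25.9 and 108 RPKM in *fruLexA/fru4-40*, 2.76 to 13.0 in *w1118* SH and 11.7 to 120 in *w1118* GH. The highest sum of fat body markers was 24.9 RPKM in *Or47b1*, 33.7 in *Or67dGAL4*, 32.6 in *fruLexA/fru4-40* and 13.6 in *w1118*. The part of these tissues in the members' levels was not tested. The antennal RNA is a mixture of cell types, so fewer cells of a type and less RNA per cell cannot be told apart.

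In group-housed wild-type antennae the members fell into 3 ranges of level. The adenylyl cyclase gene *rut* had the most transcript per kilobase, with 74.7 ± 3.13 RPKM (SD, n = 3), followed by *Galphas* with 61.0 ± 0.0995, *Galphao* with 58.7 ± 1.64, *CaMKII* with 50.1 ± 2.42 and *norpA* with 38.2 ± 0.696 RPKM. *Gprk2* with 24.0 ± 1.14, *krz* with 22.6 ± 1.23 and *Galphaq* with 12.7 ± 1.32 RPKM came next. *Arr2* with 0.408 ± 0.362 and *Arr1* with 0.337 ± 0.285 RPKM were last. Of the neighbours in this order, *Gprk2* and *krz* overlapped between libraries, as did *Arr2* and *Arr1*, while the other neighbours did not. *rut* was also first in *Or47b1* and *w1118* SH, whereas *CaMKII* had the highest mean in *Or67dGAL4* (71.9 ± 13.4 RPKM, SD, n = 3) and in *fruLexA/fru4-40* (66.8 ± 13.7 RPKM, SD, n = 2), where in both groups it overlapped with the gene ranked after it. The plot of levels by library shows the 8 members that were expressed in every library.

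**Figure D1:**
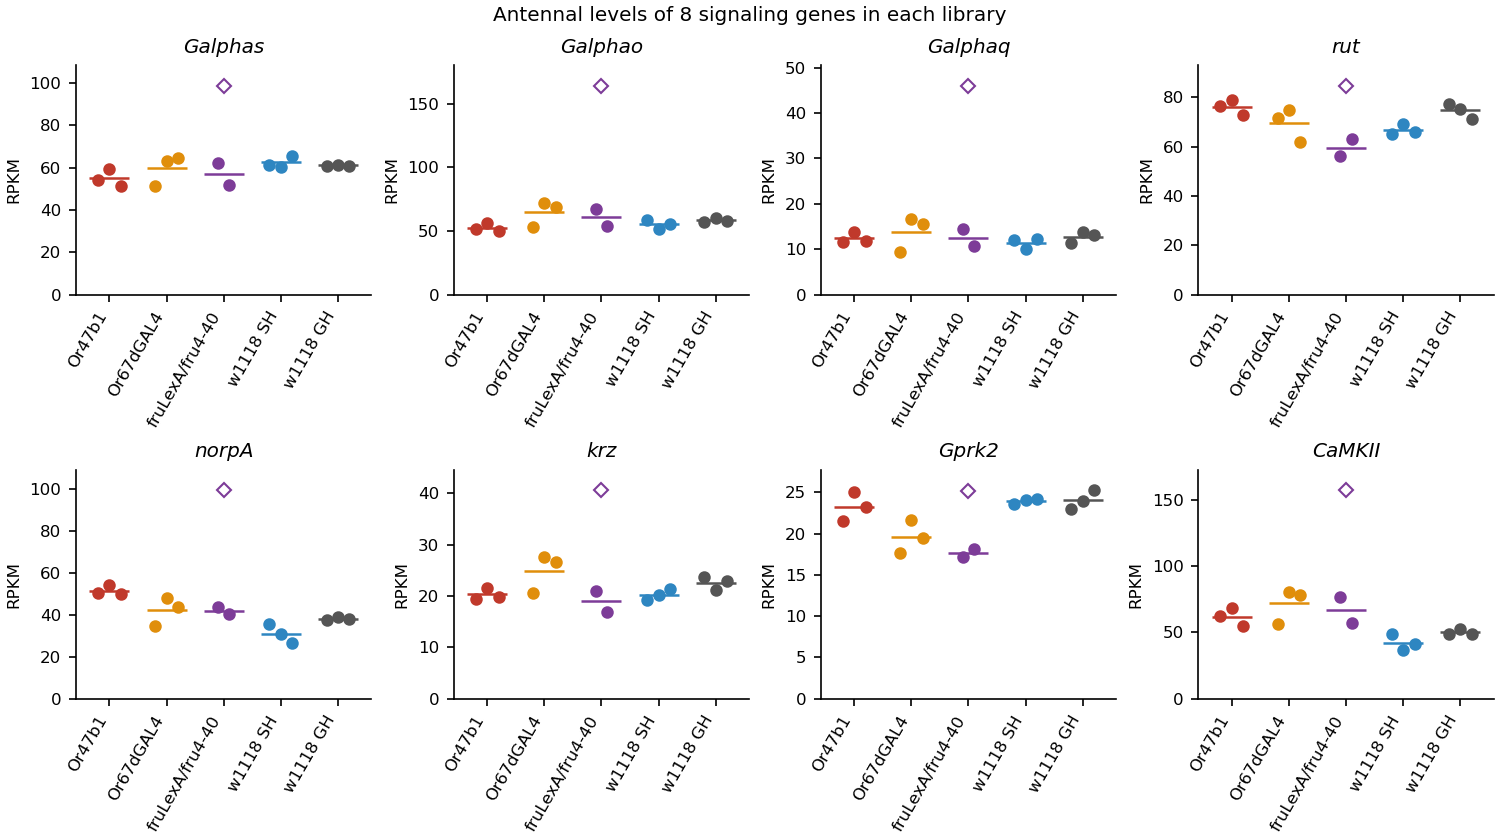
RPKM (vertical axis, from 0) of *Galphas*, *Galphao*, *Galphaq*, *rut*, *norpA*, *krz*, *Gprk2* and *CaMKII* in each library, by group along the horizontal axis; filled circles are the 14 libraries of the comparisons, horizontal lines the group means, and the open diamond is *fruLexA/fru4-40* replicate 1, which no comparison uses. All 3 *Or47b1* libraries lie above all *w1118* GH libraries for *norpA*, and both *fruLexA/fru4-40* circles lie below all *w1118* GH libraries for *Gprk2* and *rut*.

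Within their families the members differed in rank. *rut* had the highest level of the 6 adenylyl cyclase genes tested in 14 of the 14 libraries, with a median of 71.5 RPKM, against 29.7 RPKM for the next, *Ac76E*. *norpA* was the highest of the 3 phospholipase C genes in all 14, with a median of 39.6 RPKM, against 17.2 RPKM for *Plc21C*. *Galphas* was the highest of the 6 alpha subunit genes in 8 libraries, *Galphao* in 5 and *Galphai* in 1, and *Galphaq* had the lowest median of the 6, 12.1 RPKM. The non-visual arrestin *krz* was above *Arr1* in all 14 libraries and above *Arr2* in 13. Both kinases were the lesser expressed of a pair. *Gprk2* had a median of 23.1 RPKM, against 42.2 RPKM for the other receptor kinase gene *Gprk1*, and *CaMKII* had 55.7 RPKM, against 116 RPKM for *CaMKI*, in each case with the same order in all 14 libraries.

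Each other group was compared with *w1118* GH, and the mutants with one another, by edgeR's quasi-likelihood test on the counts of the 14 libraries. A gene was called where its Benjamini-Hochberg adjusted p was below 0.05. Of the 10 members 1 was called in *Or47b1* (*norpA*, higher), 2 in *Or67dGAL4* (*CaMKII*, higher, and *Gprk2*, lower), 2 in *fruLexA/fru4-40* (*rut* and *Gprk2*, both lower) and 0 in *w1118* SH. Among all genes tested the called share was 20.4% in *Or47b1* (10.5% higher and 9.97% lower), 29.5% in *Or67dGAL4* (14.4% higher and 15.1% lower), 30.8% in *fruLexA/fru4-40* (15.5% higher and 15.3% lower) and 0.994% in *w1118* SH (0.685% higher and 0.309% lower). Counted in either direction, the share of members called was below that of all genes tested in each of these comparisons. Their median absolute log2 fold change was 0.16 in *Or47b1*, 0.14 in *Or67dGAL4*, 0.29 in *fruLexA/fru4-40* and 0.16 in *w1118* SH, beside 0.18, 0.23, 0.27 and 0.12 over all genes tested. The shares and medians of the members include *Arr1* and *Arr2*, which were kept for testing through libraries with eye transcripts. Their log2 fold changes in *fruLexA/fru4-40* were 2.66 and 3.19. Medians without these genes were not computed, so no difference from all genes is read from them. These 4 comparisons share the *w1118* GH libraries.

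**Figure D2:**
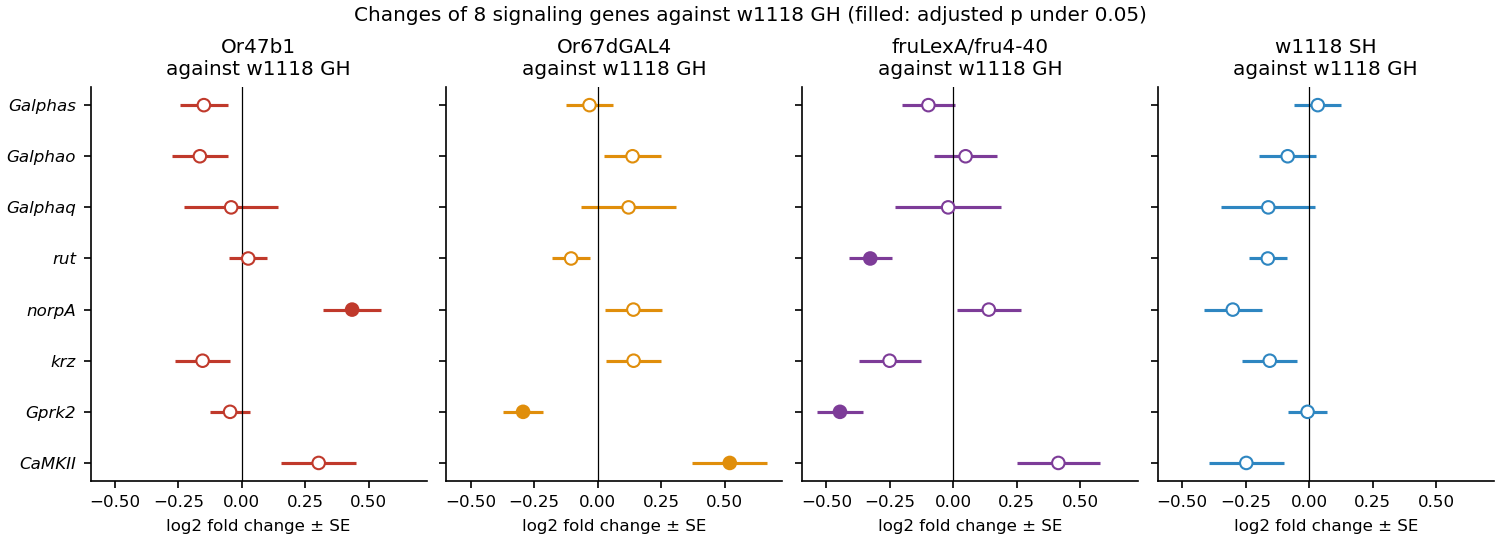
Log2 fold change against *w1118* GH (horizontal axis, edgeR, bars: standard error) of the 8 members expressed in every library, 1 panel per group; filled circles have an adjusted p below 0.05. The filled points are *norpA* at 0.43 in *Or47b1*, *Gprk2* at -0.29 and *CaMKII* at 0.52 in *Or67dGAL4*, and *rut* at -0.33 and *Gprk2* at -0.45 in *fruLexA/fru4-40*.

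In the comparisons between mutants, which use the same libraries again, 1 member was called between *Or67dGAL4* and *Or47b1* (*Gprk2*, lower in *Or67dGAL4*), 2 between *fruLexA/fru4-40* and *Or47b1* (*rut* and *Gprk2*, both lower in *fruLexA/fru4-40*) and 1 between *fruLexA/fru4-40* and *Or67dGAL4* (*krz*, lower in *fruLexA/fru4-40*). The shares of all genes called were 26.8% (13.0% higher and 13.8% lower), 31.6% (16.2% higher and 15.5% lower) and 24.2% (13.1% higher and 11.1% lower) in the same order. The plot of adjusted p with each library left out shows that 1 of the 9 calls, *Gprk2* in *fruLexA/fru4-40* against *w1118* GH, held in all 14 fits that leave out a library, and that the other 8 were lost in between 1 and 8 of them. With *fruLexA/fru4-40* replicate 1 added to the fit, all 9 calls were lost, with adjusted p between 0.137 and 0.894. Without the 4 libraries with over 10 RPKM of *ninaE*, 3 held, those of *rut* and *Gprk2* in *fruLexA/fru4-40* against *w1118* GH and of *rut* in *fruLexA/fru4-40* against *Or47b1*.

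**Figure D3:**
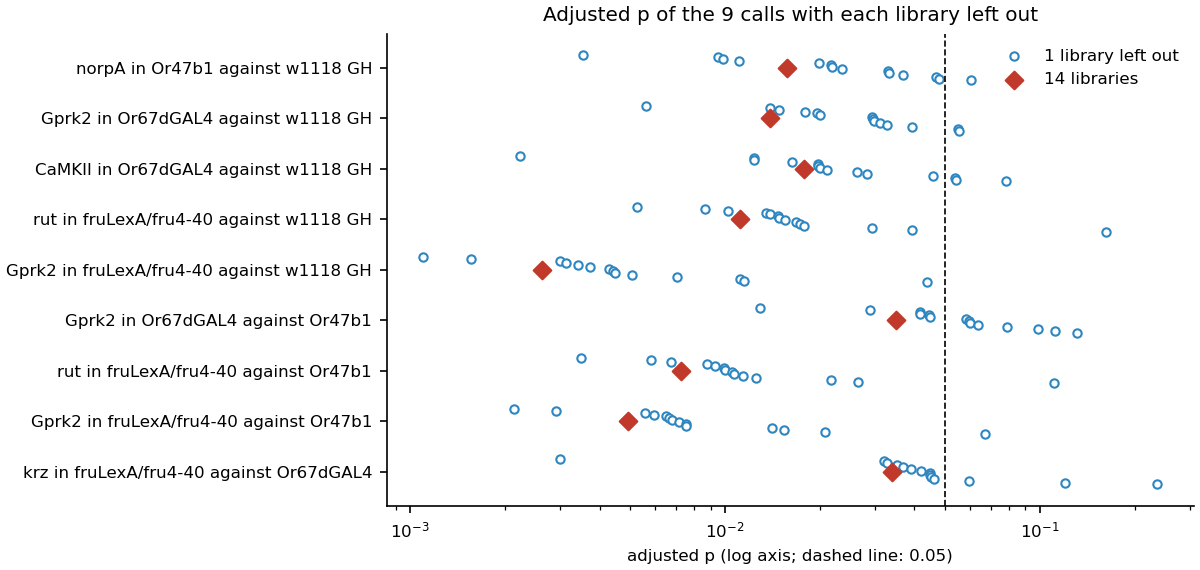
Adjusted p (horizontal log axis, edgeR) of the 9 calls, 1 row per member and comparison; diamonds are the fit to 14 libraries, open circles the 14 fits that each leave out 1 library, and the dashed line is the threshold of 0.05. All circles of *Gprk2* in *fruLexA/fru4-40* against *w1118* GH lie left of the line, and 8 of those of *Gprk2* in *Or67dGAL4* against *Or47b1* lie right of it.

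Of the alpha subunit genes among the members, *Galphas* was the most even and *Galphaq* the least. *Galphas* (FBgn0001123, dm6 chromosome 2R, 23942538 to 23946936, plus strand) encodes the subunit that stimulates adenylyl cyclase. It had 54.3, 59.5 and 51.2 RPKM in *Or47b1*, 51.2, 63.2 and 64.5 in *Or67dGAL4*, 62.0 and 52.0 in *fruLexA/fru4-40*, 61.4, 60.5 and 65.6 in *w1118* SH and 60.9, 61.1 and 61.0 in *w1118* GH, so that its highest library was 1.28 times its lowest. The same ratio was 1.46 for *Galphao* and 1.79 for *Galphaq*, beside 1.41 for *rut*, 1.47 for *Gprk2* and 1.63 for *krz*. Its fold changes against *w1118* GH ran from -0.15 (SE 0.09, adjusted p = 0.301) in *Or47b1* to 0.03 (SE 0.09, adjusted p = 0.904) in *w1118* SH on the log2 scale. *Galphao* (FBgn0001122, 2R, 10437985 to 10465701, plus strand), an alpha subunit abundant in fly neurons, had 51.2, 56.2 and 49.6 RPKM in *Or47b1*, 52.8, 72.2 and 68.7 in *Or67dGAL4*, 67.5 and 53.9 in *fruLexA/fru4-40*, 59.0, 51.9 and 55.2 in *w1118* SH and 57.4, 60.5 and 58.1 in *w1118* GH. Every *Or47b1* library lay below every *w1118* GH library for both genes, but for *Galphao*, as for *Galphas*, the difference did not pass the test (log2 fold change -0.17, SE 0.11, edgeR adjusted p = 0.343). *Galphas* was above *Galphao* in 9 of the 14 libraries, among them all 6 of *w1118*.

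*Galphaq* (FBgn0004435, 2R, 12612740 to 12623197, plus strand) encodes the subunit that activates phospholipase C, in the eye as the partner of rhodopsin. It had 11.7, 13.7 and 11.7 RPKM in *Or47b1*, 9.27, 16.6 and 15.6 in *Or67dGAL4*, 14.4 and 10.7 in *fruLexA/fru4-40*, 12.0, 10.01 and 12.2 in *w1118* SH and 11.3, 13.8 and 13.2 in *w1118* GH. The groups overlapped in every comparison, and no adjusted p was below 0.558. The annotated gene CG45086 shares 3050 of its 6910 exon bases on the same strand and had 0 counts in all 15 libraries. How reads on the shared bases were counted is not given in the sources used here, and the level per kilobase of *Galphaq* may be understated for that reason. The *Or67dGAL4* libraries were uneven for *Galphaq* and *Galphao* in the same way, with replicate 1 below replicates 2 and 3. The summed level of the neuron markers *elav*, *nSyb*, *Syt1* and *brp* was uneven there too, at 350, 474 and 461 RPKM in these replicates, against 356 to 391 RPKM in *w1118* GH, and across the 14 libraries Pearson's r with this sum was 0.88 for *Galphaq* and 0.76 for *Galphao* (0.80 and 0.37 without the 2 libraries farthest from the median sum). All these values share the scaling of their library, and the part of the neuron content in the spread was not tested. Of 23 alternatives, 1 called *Galphao* higher in *Or67dGAL4* than in *w1118* GH. It was the fit without *Or67dGAL4* replicate 1, the lowest library of that group (log2 fold change 0.26, edgeR adjusted p = 0.0427). Relative to *Or47b1*, *Galphao* was higher in *Or67dGAL4* without passing (log2 fold change 0.30, SE 0.11, edgeR adjusted p = 0.0621). That difference was called in 6 of 23 alternatives.

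*norpA* (FBgn0262738, X, 4322626 to 4365408, plus strand), the phospholipase C of phototransduction that is also expressed outside the eye, was higher in *Or47b1*. It had 50.3, 54.4 and 50.1 RPKM in *Or47b1*, against 37.7, 39.0 and 37.9 RPKM in *w1118* GH. The groups did not overlap, and the difference was 0.43 on the log2 scale, a 1.35-fold higher level (SE 0.11, edgeR adjusted p = 0.0157). Levels in the other groups were 34.7, 47.9 and 43.8 RPKM in *Or67dGAL4*, 43.9 and 40.3 in *fruLexA/fru4-40* and 35.5, 30.9 and 26.6 in *w1118* SH. All 3 *w1118* SH libraries lay below all of *w1118* GH, with a log2 fold change of -0.30 (SE 0.11) that had an unadjusted p of 0.0207 and did not pass after adjustment (edgeR adjusted p = 0.217). The *Or47b1* libraries also lay above all *Or67dGAL4* and *fruLexA/fru4-40* libraries, with log2 fold changes of -0.29 in *Or67dGAL4* (SE 0.11, adjusted p = 0.0747) and -0.29 in *fruLexA/fru4-40* (SE 0.13, adjusted p = 0.0969) relative to *Or47b1*, neither of which passed. Of *ninaE*, the same *Or47b1* libraries had 0.168, 0.575 and 37.2 RPKM. The part of eye transcripts in the level of *norpA* was not tested. The call was lost without *Or47b1* replicate 2 (log2 fold change 0.40, adjusted p = 0.0604) and without the 4 libraries with over 10 RPKM of *ninaE* (0.46, adjusted p = 0.0529).

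*rut* (FBgn0003301, X, 14787478 to 14826073, minus strand) encodes the adenylyl cyclase that responds to both Gαs and calcium-calmodulin and is needed for olfactory learning in flies. It was lower in *fruLexA/fru4-40*, with 56.0 and 63.1 RPKM, against 77.4, 75.4 and 71.3 RPKM in *w1118* GH. The groups did not overlap (log2 fold change -0.33, SE 0.08, edgeR adjusted p = 0.0111). Both libraries also lay below all of *Or47b1*, which had 76.4, 78.7 and 72.9 RPKM (log2 fold change -0.35, SE 0.08, adjusted p = 0.00726). *Or67dGAL4* had 71.7, 74.9 and 62.0 RPKM and overlapped with *fruLexA/fru4-40*, and that difference did not pass (-0.22, SE 0.08, adjusted p = 0.0724). In *w1118* SH *rut* had 65.1, 69.2 and 66.0 RPKM, all below *w1118* GH, with an unadjusted p of 0.0493 and an adjusted p of 0.314. Both calls were lost without *fruLexA/fru4-40* replicate 2, the library with the lowest level, to an adjusted p of 0.163 against *w1118* GH and 0.111 against *Or47b1*. An antisense long noncoding RNA gene overlaps 420 bases of its exons, and the libraries were not stranded, so reads there cannot be assigned by strand.

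*Gprk2* (FBgn0261988, 3R, 31405245 to 31457873, plus strand) encodes a receptor kinase that in flies acts on Smoothened in Hedgehog signaling and is needed for normal odor responses of the antenna. It was the member called most often, in 4 of the 7 comparisons. It had 17.1 and 18.1 RPKM in *fruLexA/fru4-40*, against 23.0, 23.9 and 25.2 RPKM in *w1118* GH, a log2 fold change of -0.45 (SE 0.09, edgeR adjusted p = 0.00262) with no overlap. In *Or67dGAL4* it had 17.7, 21.6 and 19.5 RPKM, also all below *w1118* GH (log2 fold change -0.29, SE 0.08, adjusted p = 0.0139). *Or47b1*, with 21.5, 25.1 and 23.2 RPKM, and *w1118* SH, with 23.6, 24.0 and 24.2 RPKM, overlapped with *w1118* GH, with log2 fold changes of -0.05 (SE 0.08) and -0.01 (SE 0.08). Relative to *Or47b1*, *Gprk2* was lower in *fruLexA/fru4-40* (log2 fold change -0.40, SE 0.09, adjusted p = 0.00493) and in *Or67dGAL4* (-0.25, SE 0.08, adjusted p = 0.0349), where the groups overlapped.

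The 2 groups with less *Gprk2* were also those with the lowest summed level of the olfactory co-receptor genes, given above. They were lowest too in the sum of *nan*, *iav*, *nompC* and *btv*, markers of Johnston organ neurons in the second antennal segment. That sum was 29.0 to 32.9 RPKM in *Or67dGAL4* and 32.8 and 34.1 in *fruLexA/fru4-40*. It was 36.8 to 45.6 RPKM in *Or47b1*, 40.0 to 47.5 in *w1118* SH and 44.6 to 51.6 in *w1118* GH. Across the 14 libraries *Gprk2* had a Pearson's r of 0.85 with the co-receptor sum (0.77 without the 2 libraries farthest from its median). With the neuron marker sum the r of *Gprk2* was 0.05 (0.42 without the 2 libraries farthest from the median of that sum). The part of the co-receptor-expressing cells or of the Johnston organ neurons in the lower level was not tested. The call in *fruLexA/fru4-40* against *w1118* GH held with any 1 library left out, with an adjusted p between 0.0011 and 0.044. The call in *Or67dGAL4* against *w1118* GH was lost without *Or67dGAL4* replicate 3 (adjusted p = 0.0551) or *w1118* GH replicate 3 (0.0555), and that against *Or47b1* in *fruLexA/fru4-40* without *fruLexA/fru4-40* replicate 2 (0.0668). The call between *Or67dGAL4* and *Or47b1* was lost in 8 of the 14 fits that leave out a library, those without *Or47b1* replicate 2 or 3, *Or67dGAL4* replicate 1 or 3, either *fruLexA/fru4-40* library, *w1118* SH replicate 3 or *w1118* GH replicate 1, with an adjusted p of up to 0.132. Without the 4 libraries with over 10 RPKM of *ninaE*, only the call in *fruLexA/fru4-40* against *w1118* GH of these 4 remained, in a fit with fewer samples. The log2 fold changes of the others were then -0.26 in *Or67dGAL4* against *w1118* GH (adjusted p = 0.139), -0.22 in *Or67dGAL4* against *Or47b1* (0.286) and -0.45 in *fruLexA/fru4-40* against *Or47b1* (0.065), beside -0.29, -0.25 and -0.40 over the 14 libraries. The antisense gene *PNPase* overlaps 182 exon bases of *Gprk2* and was called in none of the comparisons.

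*krz* (FBgn0040206, 3R, 32045314 to 32051993, minus strand) encodes the fly's non-visual arrestin, which uncouples and internalizes receptors in many tissues. It had 19.4, 21.6 and 19.9 RPKM in *Or47b1*, 20.7, 27.6 and 26.5 in *Or67dGAL4*, 21.1 and 16.9 in *fruLexA/fru4-40*, 19.3, 20.3 and 21.4 in *w1118* SH and 23.7, 21.3 and 22.9 in *w1118* GH. Its 1 call was a lower level in *fruLexA/fru4-40* than in *Or67dGAL4* (log2 fold change -0.39, SE 0.12, edgeR adjusted p = 0.0339), in which *fruLexA/fru4-40* replicate 2 lay above *Or67dGAL4* replicate 1. Against *w1118* GH both *fruLexA/fru4-40* libraries were lower, which did not pass (log2 fold change -0.25, SE 0.12, adjusted p = 0.135). The call was lost without *Or67dGAL4* replicate 2 (adjusted p = 0.12), *Or67dGAL4* replicate 3 (0.0598) or *fruLexA/fru4-40* replicate 3 (0.236), and without the 4 libraries with over 10 RPKM of *ninaE* (log2 fold change -0.23, adjusted p = 0.445). Of 23 alternatives, on the other hand, 1 called *krz* higher in *Or67dGAL4* than in *w1118* GH. It was the fit without *Or67dGAL4* replicate 1, the lowest library of that group (log2 fold change 0.26, edgeR adjusted p = 0.0449). Relative to *Or47b1*, *krz* was higher in *Or67dGAL4* without passing (log2 fold change 0.30, SE 0.11, edgeR adjusted p = 0.0605), and was called in 6 of 23 alternatives. Its Pearson's r with the neuron marker sum was 0.83 over the 14 libraries (0.51 without the 2 farthest).

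*CaMKII* (FBgn0264607, chromosome 4, 1035288 to 1053703, minus strand) encodes the calcium-calmodulin-dependent kinase of synaptic plasticity. It was higher in *Or67dGAL4*, with 56.4, 80.8 and 78.4 RPKM, against 48.7, 52.9 and 48.7 RPKM in *w1118* GH. The groups did not overlap, and the log2 fold change was 0.52, a 1.43-fold higher level (SE 0.15, edgeR adjusted p = 0.0179). *Or47b1*, with 62.3, 68.1 and 55.0 RPKM, and *fruLexA/fru4-40*, with 76.4 and 57.1 RPKM, also lay wholly above *w1118* GH without passing the test (log2 fold change 0.30, SE 0.15, adjusted p = 0.175 in *Or47b1*, and 0.41, SE 0.16, adjusted p = 0.0711 in *fruLexA/fru4-40*). *w1118* SH, with 48.4, 37.1 and 41.1 RPKM, lay wholly below (log2 fold change -0.25, SE 0.15, adjusted p = 0.45). All 8 mutant libraries were therefore above all 6 *w1118* libraries in *CaMKII*. This split was not among the comparisons, and the share of all genes that divide the libraries in the same way was not counted.

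The call of *CaMKII* in *Or67dGAL4* was lost without *Or67dGAL4* replicate 2 (adjusted p = 0.0782), *Or67dGAL4* replicate 3 (0.0539) or *w1118* GH replicate 3 (0.0544), and without the 4 libraries with over 10 RPKM of *ninaE* (log2 fold change 0.48, adjusted p = 0.0777). In *fruLexA/fru4-40* against *w1118* GH the gene was called in 3 of 23 alternatives. Among them was the fit without *Or67dGAL4* replicate 1 (log2 fold change 0.41, edgeR adjusted p = 0.0295). Without *fruLexA/fru4-40* replicate 3, which leaves 1 library in that group, the log2 fold change was 0.61. In *Or47b1* against *w1118* GH it was called in 1 of 23, the fit to these groups alone (0.30, edgeR adjusted p = 0.0253). Across the 14 libraries its Pearson's r was 0.71 with the neuron marker sum (0.44 without the 2 farthest) and -0.78 with the summed co-receptor genes (-0.66 without the 2 farthest), opposite in sign to that of *Gprk2*. What these sums contribute to the level was not tested.

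The visual arrestins *Arr1* (FBgn0000120, 2L, 18078269 to 18081307, plus strand) and *Arr2* (FBgn0000121, 3L, 8647261 to 8648936, minus strand) bind activated rhodopsin in photoreceptors. Their levels varied widely among the libraries of single groups. *Arr1* had 0, 0.205 and 8.20 RPKM in *Or47b1*, 0.352, 0.152 and 1.24 in *Or67dGAL4*, 0.726 and 3.46 in *fruLexA/fru4-40*, 0.0716, 0.288 and 1.42 in *w1118* SH and 0.131, 0.662 and 0.216 in *w1118* GH. *Arr2* had 0.115, 0.131 and 21.8 RPKM in *Or47b1*, 0.916, 0.183 and 7.08 in *Or67dGAL4*, 0.733 and 6.53 in *fruLexA/fru4-40*, 0, 0.791 and 4.80 in *w1118* SH and 0.168, 0.824 and 0.231 in *w1118* GH. In each of the 4 groups other than *w1118* GH, replicate 3 had the highest level of both genes. The counts behind these values were 177 of *Arr1* and 294 of *Arr2* in *Or47b1* replicate 3, and 0 to 19 of *Arr1* and 0 to 14 of *Arr2* in the 10 libraries with under 10 RPKM of *ninaE*. Both genes were kept for testing through the libraries in which they are high, and were called in none of the 7 comparisons, with the lowest adjusted p being 0.154 for *Arr2* in *Or47b1* against *w1118* GH.

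The libraries with the arrestins were those with *ninaE*, the major rhodopsin of the outer photoreceptors. *ninaE* had 37.2 RPKM in *Or47b1* replicate 3, 17.6 in *fruLexA/fru4-40* replicate 3, 12.2 in *Or67dGAL4* replicate 3 and 10.9 in *w1118* SH replicate 3. In these 4 libraries *Arr2* was 0.37 to 0.586 times and *Arr1* 0.102 to 0.22 times the level of *ninaE*. In the other 10, *ninaE* had a median of 0.371 RPKM, *Arr1* 0.21 and *Arr2* 0.207 RPKM. On log2 CPM, Pearson's r with *ninaE* over the 14 libraries was 0.94 for *Arr1* and 0.97 for *Arr2* (0.90 and 0.95 without the 2 libraries farthest from the median of *ninaE*), and between -0.45 for *rut* and 0.05 for *CaMKII* for the other 8 members. The 6 rhodopsin genes summed to 42.2 RPKM in *Or47b1* replicate 3, 20.1 in *fruLexA/fru4-40* replicate 3, 15.6 in *Or67dGAL4* replicate 3 and 13.0 in *w1118* SH replicate 3. Over the whole list of 16 photoreceptor genes the sum ranged from 51.4 to 94.9 RPKM in *Or47b1*, 48.8 to 63.2 in *Or67dGAL4*, 46.0 and 62.8 in *fruLexA/fru4-40*, 48.7 to 57.8 in *w1118* SH and 51.3 to 55.6 in *w1118* GH. In *w1118* GH most of that sum came from *rdgC* and *Calx*, which had at least 17.2 and 19.0 RPKM in every one of the 14 libraries, while *ninaA* had 0 counts in all of them. *ninaE* was over 10 RPKM in replicate 3 of 4 groups and in no *w1118* GH library, where the highest was 1.03 RPKM (18 counts) in replicate 2, so the levels of *Arr1* and *Arr2* in a group mean cannot be told apart from the presence of eye transcripts.

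**Figure D4:**
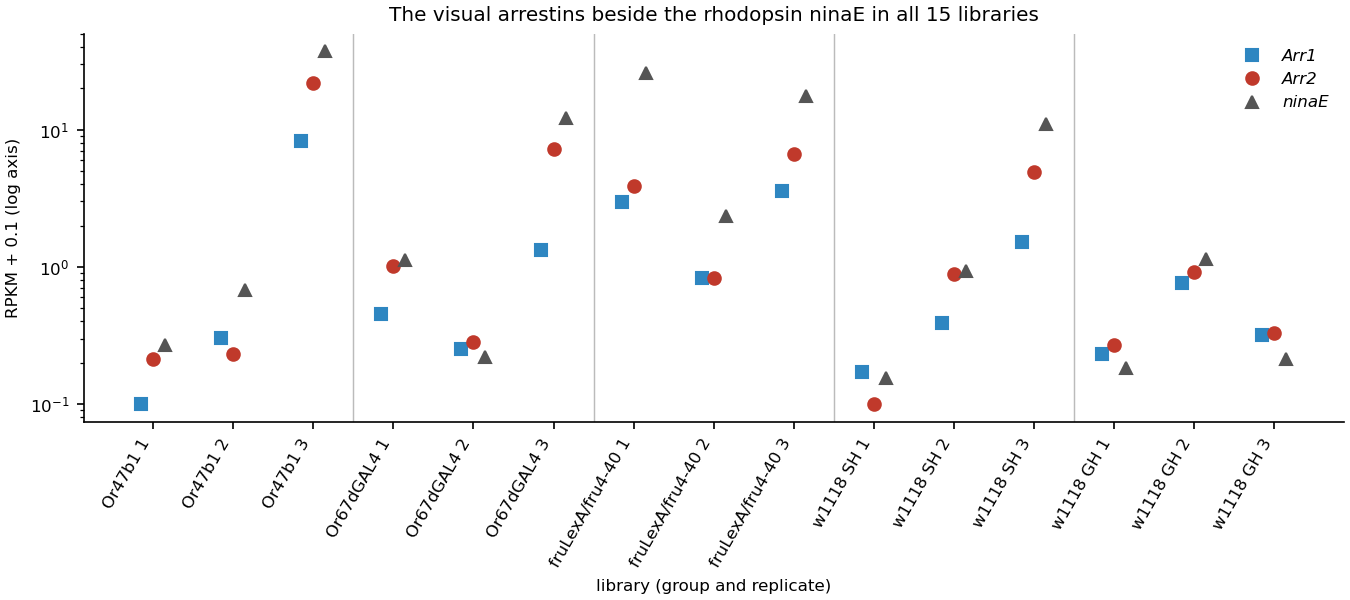
RPKM + 0.1 (vertical log axis) of *Arr1* (squares), *Arr2* (circles) and *ninaE* (triangles) in each of the 15 libraries, named by group and replicate, with grey lines between groups; points at 0.1 are libraries with 0 counts. The 3 genes are high together in replicate 3 of *Or47b1*, *Or67dGAL4*, *fruLexA/fru4-40* and *w1118* SH and in *fruLexA/fru4-40* replicate 1, and low in all 3 *w1118* GH libraries.

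The genes whose pattern was most like that of a member over the 14 libraries, by Pearson's r of log2 CPM, were mostly genes of other kinds. *CaMKII* was closest to *Taf3* (r = 0.98), *sqd* (0.98) and *pan* (0.98), and *norpA* to *spen*, *shakB* and *NaCP60E* (0.96, 0.96 and 0.95). *Galphao* was closest to CG31221 (0.97), the ligand gene *Actbeta* (0.96) and the synaptic vesicle gene *cpx* (0.96), and *Galphaq* to *ova* (0.92), *fne* (0.92) and *shep* (0.91), of which the last pair encode RNA-binding proteins of neurons. *Gprk2* was closest to CG43689 (0.96), *chn* (0.95) and CG15760 (0.94), *rut* to *l(2)k05819* (0.91), *MESR4* (0.91) and the clathrin heavy chain gene *Chc* (0.91), and *Galphas* to the noncoding RNA *roX2* (0.92), CG31808 (0.92) and CG11791 (0.90). *krz* was closest to *Septin4* (0.91), *Uhg1* (0.90) and *meng* (0.89), and these fell to between 0.69 and 0.75 without the 2 libraries farthest from the median. *Arr1* was closest to *Arr2* (0.94), *ninaE* (0.94) and *chp* (0.93), and *Arr2* to *ninaE* (0.97), *Arr1* (0.94) and *chp* (0.87), all of them photoreceptor genes. Among the members expressed in every library, the most alike pairs were *Galphaq* with *Galphao* (r of log2 RPKM 0.84) and *norpA* with *CaMKII* (0.77). These correlations describe 14 libraries of 5 groups and include the differences between groups.

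Around the members, 52 other genes of G protein, cAMP, phosphoinositide and calcium-calmodulin signaling were listed, of which 50 could be tested. In *Or47b1* 17 of the 50 were called, 14 higher and 3 lower than in *w1118* GH. That is 34% of the list, beside 20.4% of all genes tested, and the median of the 50 was 0.08 on the log2 scale, beside -0.01 over all genes. In *Or67dGAL4* 18 were called (36%, beside 29.5% of all genes), 16 higher and 2 lower, with a median of 0.14, beside -0.02. In *fruLexA/fru4-40* the balance was the other way, with 13 called, 3 higher and 10 lower, which at 26% is below the 30.8% of all genes, and a median of 0.02, beside 0.04. In *w1118* SH 0 were called, with a median of -0.05, beside -0.0013 over all genes. Unlike those of the members, the calls of these 50 genes were not followed over the alternatives. *Or67dGAL4* replicates 2 and 3 had the highest neuron marker sums of the 14 libraries, and the part of neuron content in these calls was not tested.

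Of the *Or47b1* calls, *Cngl*, a gene related to cyclic nucleotide-gated channels, averaged 5.55 RPKM in *Or47b1* and 2.34 in *w1118* GH (log2 fold change 1.24, SE 0.18, edgeR adjusted p = 0.000251). The calcium-responsive phosphodiesterase gene *Pde1c* averaged 31.6 RPKM in *Or47b1* and 18.2 in *w1118* GH (0.80, SE 0.12, adjusted p = 0.000505). *rdgB*, which encodes a phosphatidylinositol transfer protein that works after phospholipase C, averaged 25.7 RPKM in *Or47b1* and 18.1 in *w1118* GH (0.51, SE 0.08, adjusted p = 0.000333), and *Itpr*, the inositol trisphosphate receptor, 38.5 and 29.9 RPKM (0.37, SE 0.10, adjusted p = 0.0172). Of the 6 other genes of phosphoinositide turnover 4 were called in *Or47b1*, 3 higher and 1 lower. The third that rose was *rdgA*, a diacylglycerol kinase gene (0.36, SE 0.11, adjusted p = 0.0319), and the one that fell was the diacylglycerol lipase gene *inaE*, with 17.8 RPKM in *Or47b1*, against 23.6 in *w1118* GH (-0.41, SE 0.08, adjusted p = 0.00204). *Plc21C* (-0.01) and *sl* (-0.09) did not pass. Of the adenylyl cyclases other than *rut*, *Ac13E* (0.57, SE 0.08, adjusted p = 0.000253) and *Ac78C* (0.56) rose, while *Ac76E* fell to 23.1 RPKM in *Or47b1*, against 31.2 in *w1118* GH (-0.43, SE 0.07, adjusted p = 0.000688). The eye protein kinase C gene *inaC* was also among the higher genes, with 0.615 RPKM in *Or47b1*, against 0.130 in *w1118* GH, in the group whose replicate 3 had the most *ninaE*.

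In *Or67dGAL4*, where 29.5% of all genes were called and 14.4% were higher, 4 of the 5 other cyclases were called, 2 in each direction. *Ac76E* rose to 41.1 RPKM in *Or67dGAL4*, against 31.2 in *w1118* GH (log2 fold change 0.40, SE 0.07, edgeR adjusted p = 0.000975), and *Ac13E* rose too (0.50, SE 0.08, adjusted p = 0.000593), while *Ac78C* and *ACXD* fell (-0.75 and -0.64). The difference in *Ac76E* between the receptor mutants was itself tested, at 0.84 in *Or67dGAL4* relative to *Or47b1* (SE 0.07, adjusted p = 2.58e-06). *Pde1c* rose by the same 0.80 (SE 0.12, adjusted p = 0.000423) and *rdgA* by 0.62 (SE 0.11, adjusted p = 0.000977) relative to *w1118* GH. Of the 7 tested protein kinase A genes and other cAMP effectors 4 rose, *CrebA*, *Epac*, *Pka-C3* and *Pka-R2*, by 0.30 to 0.56 (57.1% of the 7), and 0 of the 7 were called in *Or47b1*. Tested directly between these mutants, *CrebA*, *Pka-C3* and *Pka-R2* were higher in *Or67dGAL4* than in *Or47b1*, by 0.48, 0.33 and 0.33 (adjusted p = 0.00335, 0.0211 and 0.0423).

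In *fruLexA/fru4-40* the gene with the smallest adjusted p was *inaE*, a diacylglycerol lipase gene, which averaged 14.1 RPKM, against 23.6 in *w1118* GH (log2 fold change -0.74, SE 0.09, edgeR adjusted p = 6.5e-05). *ACXD* fell to 5.12 RPKM in *fruLexA/fru4-40*, against 10.3 in *w1118* GH (-1.01, SE 0.20, adjusted p = 0.00262), and *CASK*, which encodes a scaffold with a CaM kinase-like domain, by 0.35 (SE 0.08, adjusted p = 0.00469) on the log2 scale. The alpha subunit gene *Galphaf* rose to 53.0 RPKM in *fruLexA/fru4-40*, against 28.0 in *w1118* GH (0.92, SE 0.15, adjusted p = 0.000731), and it also rose in *Or67dGAL4* (0.75, SE 0.14, adjusted p = 0.0013). Of the 3 genes of RGS proteins and alpha subunit chaperones, *loco* (-0.48) and *RSG7* (-0.50) fell and *ric8a* (-0.15) did not pass, nor did the other receptor kinase gene *Gprk1* (0.09). Of the 7 protein kinase A genes and other cAMP effectors tested 1 was called, the catalytic subunit gene *Pka-C1*, which fell (-0.38, SE 0.11, adjusted p = 0.0203). The median of the 7 was 0.01, and *Pka-C3* had 61.6 RPKM in *fruLexA/fru4-40*, against 51.0 in *w1118* GH (0.27, adjusted p = 0.0661).

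Between *Or67dGAL4* and *Or47b1* 16 of the 50 genes were called (32%, beside 26.8% of all genes), 10 higher and 6 lower in *Or67dGAL4*. Besides *Ac76E*, those with the smallest adjusted p were *Ac78C* (log2 fold change -1.31, SE 0.17, edgeR adjusted p = 0.000104), *inaE* (0.48, SE 0.08, adjusted p = 0.000575) and *ACXD* (-1.08, SE 0.17, adjusted p = 0.000612). The other receptor kinase, *Gprk1*, was higher in *Or67dGAL4*, at 61.2 RPKM, against 37.2 in *Or47b1* (0.72, SE 0.21, adjusted p = 0.0218), the reverse of *Gprk2*. Between *fruLexA/fru4-40* and *Or47b1* 18 were called (36%, beside 31.6% of all genes), 4 higher and 14 lower in *fruLexA/fru4-40*. The called genes were led by *ACXD* (-1.46, SE 0.20, adjusted p = 0.000251), *Ac78C* (-1.26), *CASK* (-0.49) and *rdgB* (-0.49). Between *fruLexA/fru4-40* and *Or67dGAL4* 14 were called (28%, beside 24.2% of all genes), 1 higher and 13 lower in *fruLexA/fru4-40*. Those were led by *inaE* (-0.82, SE 0.09, adjusted p = 4.04e-05), *Ac76E* (-0.49), *Pde11* (-0.43) and *RSG7* (-0.74).

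**Figure D5:**
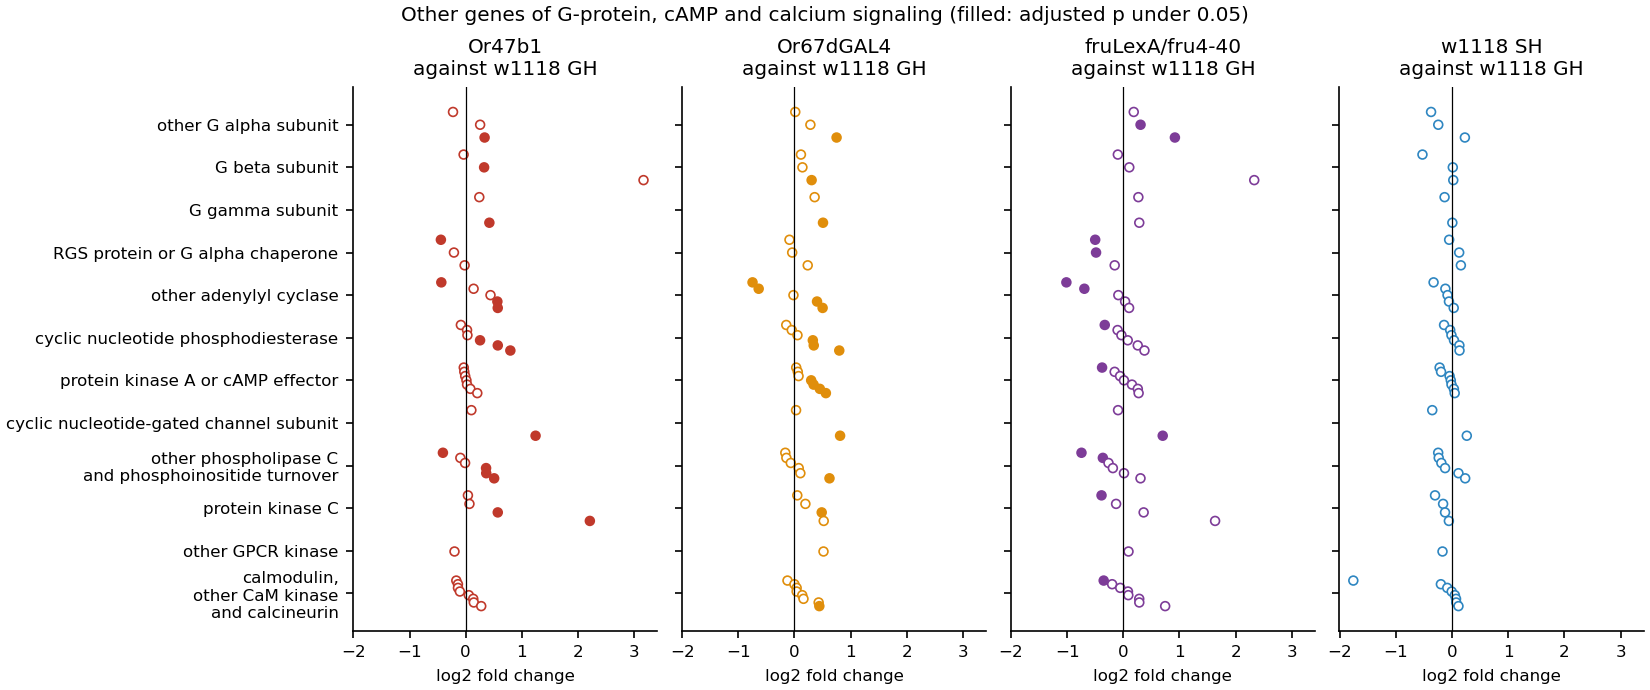
Log2 fold change against *w1118* GH (horizontal axis, edgeR) of the 50 other signaling genes tested, grouped by role along the vertical axis, 1 panel per group; each circle is a gene, and filled circles have an adjusted p below 0.05. Filled circles lie mostly right of 0 in *Or47b1* (14 of 17) and *Or67dGAL4* (16 of 18), mostly left of 0 in *fruLexA/fru4-40* (10 of 13), and there are 0 in *w1118* SH.

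Single housing changed none of the members past the threshold. By edgeR 0 of the 10 were called in *w1118* SH, 2 had an unadjusted p below 0.05 (*norpA* and *rut*, both lower), and DESeq2 also called 0. The largest log2 fold changes of members expressed in every library were -0.30 for *norpA* and -0.25 for *CaMKII* (SE 0.15), and the standard errors of those 8 members ran from 0.07 for *rut* to 0.19 for *Galphaq*. Nothing in the labels says that replicates came from separate crosses or days, and the p-values measure the spread between these samples.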

How the data were processed

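Per the labels and the study's methods, the libraries were non-stranded poly(A); the authors used FASTP for trimming and MapSplice2 for alignment against dm6, kept non-duplicate, well-mapped read pairs, and deposited raw counts per gene from featureCounts with exon lengths; tool versions and the annotation release are not given in the sources used here. Deduplication without molecular identifiers can lower the counts of abundant genes. Samples were grouped by their labels. The 14 samples of the study entered 1 edgeR 4.0.16 quasi-likelihood fit (R 4.3.3; TMM, filterByExpr, 10358 of 17490 genes kept), with Benjamini-Hochberg adjustment over all tested genes within each of 7 comparisons and a threshold of 0.05. RPKM used exon lengths in the tables, and log2 CPM a prior count of 2. Positions matched the reference annotation BDGP6.54 for 17144 genes. Total counts were 8570425 to 14908299, where 3 counts is the smallest signal taken as seen; this covers counting error only. The fit was also run on simulated counts with far fewer changed genes than the mutant comparisons called, equally many up and down. That run does not test the scaling where many genes differ. Alternatives were DESeq2 1.42.0, RLE or total-count scaling, no or a stricter filter (10 counts), the compared groups only, all 15 samples, a replicate block and each library left out; leaving out the 4 libraries with over 10 RPKM of *ninaE* was chosen after seeing the data. Members and lists were chosen with earlier results of these data known. Named are all 10 members, per comparison the up to 4 other pathway genes with the smallest adjusted p, photoreceptor genes above 10 RPKM in any library, and the 3 genes most like each member; further pathway genes were chosen after their values were seen. Tables and figures were made with Python 3.11.15, pandas 2.3.3, numpy 2.4.6 and matplotlib 3.10.9. No sequences are shown.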

Additional observations from a re-analysis of the deposited data

Results flagged for a closer look

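*fruLexA/fru4-40* replicate 1, the deposited library that carries a QC warning and is in no comparison, stood above all *w1118* GH libraries for 9 of the 10 members and above all 14 other libraries for 7 of them. It had 45.9 RPKM of *Galphaq*, against at most 13.8 in *w1118* GH, 164 RPKM of *Galphao*, against at most 60.5, and 98.5 RPKM of *Galphas*, against at most 61.1. *CaMKII* had 157 RPKM there, against at most 52.9 in *w1118* GH, *norpA* 99.4, against at most 39.0, and *rut* 84.6, against at most 77.4. *krz* had 40.6 RPKM, against at most 23.7 in *w1118* GH, *Arr1* 2.86, against at most 0.662, and *Arr2* 3.79, against at most 0.824. The exception was *Gprk2*, at 25.1 RPKM, against at most 25.2 in *w1118* GH. This library was scaled in a fit to all 15 libraries and the others in the fit to 14. A difference as small as that of *Gprk2* cannot be told apart from the scaling. In the same library *ninaE* had 25.9 RPKM, the neuron marker sum was 944 RPKM, against 334 and 378 in the other *fruLexA/fru4-40* libraries, and the co-receptor sum was 778 RPKM, against 1217 and 1380. The part of these differences in the members' levels was not tested.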

How the results depend on the processing

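Of 70 member values (10 members in 7 comparisons) there were 1584 alternative values, of which 1519 kept their side of the threshold, 36 lost a call, 28 gained one and 1 reversed. With all 15 samples, *krz* in *fruLexA/fru4-40* against *Or67dGAL4* was 0.0725 on the log2 scale, in place of -0.39, (adjusted p = 0.894), and that fit called 0 members in *Or47b1* and *Or67dGAL4* against *w1118* GH and in each comparison between mutants, and 1 in *fruLexA/fru4-40* against *w1118* GH (*CaMKII*, log2 fold change 0.93, adjusted p = 0.0343). The cause was not tested. DESeq2, RLE scaling and the stricter filter each called 3 members in *Or67dGAL4* against *Or47b1* (*Galphao*, *Gprk2* and *krz*) and 2 in *fruLexA/fru4-40* against *Or67dGAL4* (*krz* and *rut*). With the compared groups only, 2 members were called in *Or47b1* against *w1118* GH and 0 in *Or67dGAL4* against *Or47b1* and in *fruLexA/fru4-40* against *Or67dGAL4*. Without the 4 libraries with over 10 RPKM of *ninaE*, a fit with fewer samples, 0 members were called in *Or47b1* and *Or67dGAL4* against *w1118* GH and in *Or67dGAL4* against *Or47b1*, and 1 in *fruLexA/fru4-40* against *Or47b1* (*rut*). With each library left out in turn, the members called ran from 0 to 1 in *Or47b1*, 0 to 4 in *Or67dGAL4*, 1 to 3 in *fruLexA/fru4-40* and 0 to 0 in *w1118* SH against *w1118* GH, from 0 to 2 in *Or67dGAL4* and 0 to 3 in *fruLexA/fru4-40* against *Or47b1*, and from 0 to 1 in *fruLexA/fru4-40* against *Or67dGAL4*. Where this leaves 1 *fruLexA/fru4-40* library, it is assumed to vary like the other groups.

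Same-numbered samples of different groups had a mean correlation of 0.04 in their deviations from the group means (26 pairs, -0.35 to 0.36), against -0.02 for other pairs. Such deviations cancel within a group, which ties the means to each other. They therefore cannot decide whether the replicate numbers pair the samples. With the replicate block the members called stayed at 1 in *Or47b1*, 2 in *Or67dGAL4*, 2 in *fruLexA/fru4-40* and 0 in *w1118* SH against *w1118* GH, and at 1, 2 and 1 between mutants. Over all genes, *w1118* SH against *w1118* GH had 103 calls, with 347 by DESeq2, 165 with the block, 51 without the 4 libraries, 16 with all 15 samples and 13 with the compared groups only. With the 15 samples the calls were 1219 of *Or47b1* and 1608 of *Or67dGAL4* against *w1118* GH, in place of 2117 and 3052, 1401 in *Or67dGAL4* against *Or47b1*, in place of 2778, and 2159 in *fruLexA/fru4-40* against *Or47b1*, in place of 3277. In *fruLexA/fru4-40* against *Or67dGAL4* they were 1140 with 15 samples and 998 with the compared groups only, in place of 2506. Without the 4 libraries they were 1337 and 1796 for *Or47b1* and *Or67dGAL4* against *w1118* GH, 1220 in *Or67dGAL4* against *Or47b1*, 2026 in *fruLexA/fru4-40* against *Or47b1* and 1122 in *fruLexA/fru4-40* against *Or67dGAL4*. Of the calls in *Or47b1* against *w1118* GH 51.2% were higher, with 40.0% when scaled by total counts, and of those in *fruLexA/fru4-40* against *Or67dGAL4* 54.1%, with 43.4% with RLE scaling and 40.0% by DESeq2; in *w1118* SH against *w1118* GH they were 68.9% and, by DESeq2, 51.9%. Without *fruLexA/fru4-40* replicate 2 the calls were 1465 against *w1118* GH, 1356 against *Or47b1* and 974 against *Or67dGAL4*, and without *Or67dGAL4* replicate 2 the last was 1595. In *w1118* SH against *w1118* GH they were 5, 7, 41, 55, 61 and 215 without *w1118* GH replicate 3, *w1118* SH replicate 2, *w1118* GH replicate 2, *w1118* SH replicate 3, *Or47b1* replicate 1 and *w1118* SH replicate 1.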
